A study of Mus musculus with 6 samples.

Results

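The 37 genes described here encode the stress-responsive transcription factor NRF2 (Nfe2l2), its inhibitor Keap1, and enzymes of the glutathione, thioredoxin, pentose phosphate and other antioxidant systems, many of them known NRF2 targets. They were chosen by symbol, and all 37 matched 1 of the 55416 mouse gene identifiers counted. Expression was measured by RNA sequencing in MB21, a mouse medulloblastoma line with mutant Ptch that grows without attachment in serum-free medium with B27. The 3 DMSO libraries came from cells given vehicle, and the 3 DS38 libraries from cells given 10 uM DS-1-38, a benzarone derivative, for 1 day. The series' design text names a longer treatment, whereas the sample titles and the protocol give 1 day. Both groups carry the Ptch mutation. The labels do not say whether replicates came from different cultures, and the p-values therefore cover only the spread between these libraries, which may be technical.

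In unstressed cells KEAP1 holds NRF2 in a ubiquitin ligase complex and keeps it short-lived. Electrophiles and oxidants modify cysteines of KEAP1, NRF2 then accumulates, and with small MAF proteins it binds antioxidant response elements near its target genes. Glutathione and thioredoxin are the main thiol reductants of the cell, and both are recharged with NADPH, which the pentose phosphate pathway and malic enzyme supply.

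The DS38 libraries were the deeper ones, with totals of 60434089 to 84044428 counts against 38840296 to 50014681 for DMSO. The 7 granule progenitor markers mark the lineage of hedgehog-driven medulloblastoma. They summed to 1576 to 1620 CPM (counts scaled to the TMM-corrected library size) in DMSO and 1611 to 1639 in DS38. The sum covers opposite changes, with 2 markers called higher and 3 lower in DS38 (24.5% of all genes were called). Atoh1 (mean 327 CPM in DMSO and 411 in DS38) and Barhl1 (191 and 231) were higher. Neurod1 (113 and 87.4), Zic2 (196 and 178) and Zic1 (666 and 623) were lower, while Pax6 and Mfng did not pass. The 6 microglial markers summed to at most 0.336 CPM in any library, with Tyrobp and C1qa at 0, and the 4 endothelial ones to at most 1.00 CPM, with Cldn5 and Kdr at 0. The 5 oligodendrocyte markers summed to 4.47 to 4.79 CPM in DMSO and 4.21 to 4.88 in DS38, with Mag at 0, and the 5 fibroblast markers to at most 1.34 CPM in DMSO and 1.84 to 2.17 in DS38, where Col1a1 was higher (0.373 ± 0.168 and 0.822 ± 0.258 CPM; SD, n = 3). The 5 astrocyte markers summed to 144 to 152 CPM in DMSO and 143 to 149 in DS38, nearly all of it Slc1a3; Aqp4 and Aldh1l1 had 3 and 8 counts in all libraries together, while Gfap was higher in DS38 (4.33 ± 0.241 and 5.40 ± 0.333 CPM) and S100b did not pass (0.788 ± 0.0199 and 0.612 ± 0.0993 CPM). In bulk RNA, fewer cells of a type and less RNA per cell cannot be told apart, and the part of such cells in the results below was not tested.

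Glutathione transferases, heme oxygenase and the genes of NRF2 and KEAP1 were higher after DS38, most peroxiredoxins and thioredoxin did not pass the test, and Gpx1, Txnrd1, Pgd and Tkt were lower. Of the 36 members that passed the filter on low counts, edgeR's quasi-likelihood test called 16 higher and 4 lower at an adjusted p under 0.05, which is 55.6%, against 24.5% of all 17679 genes tested. Of all genes, 12.9% were called higher and 11.7% lower. The median log2 fold change was 0.08 over the tested members and 0.004 over all genes, and the median absolute log2 change was 0.11 and 0.12. The largest changes among called members were those of Gsta4 (1.73-fold) and Mgst3 (1.59-fold). CPM values of the groups did not overlap for 20 of the 36, against 38.6% of all genes (20.7% higher and 17.9% lower). The split moved with the processing: 12 were higher and 8 lower once each library's trend with gene length was removed, and 18 and 2 with library size alone. Without DMSO replicate 1, or without DS38 replicate 1, 10 were higher and 4 lower, and without DS38 replicate 3 the numbers were 11 and 1.

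**Figure D1:**
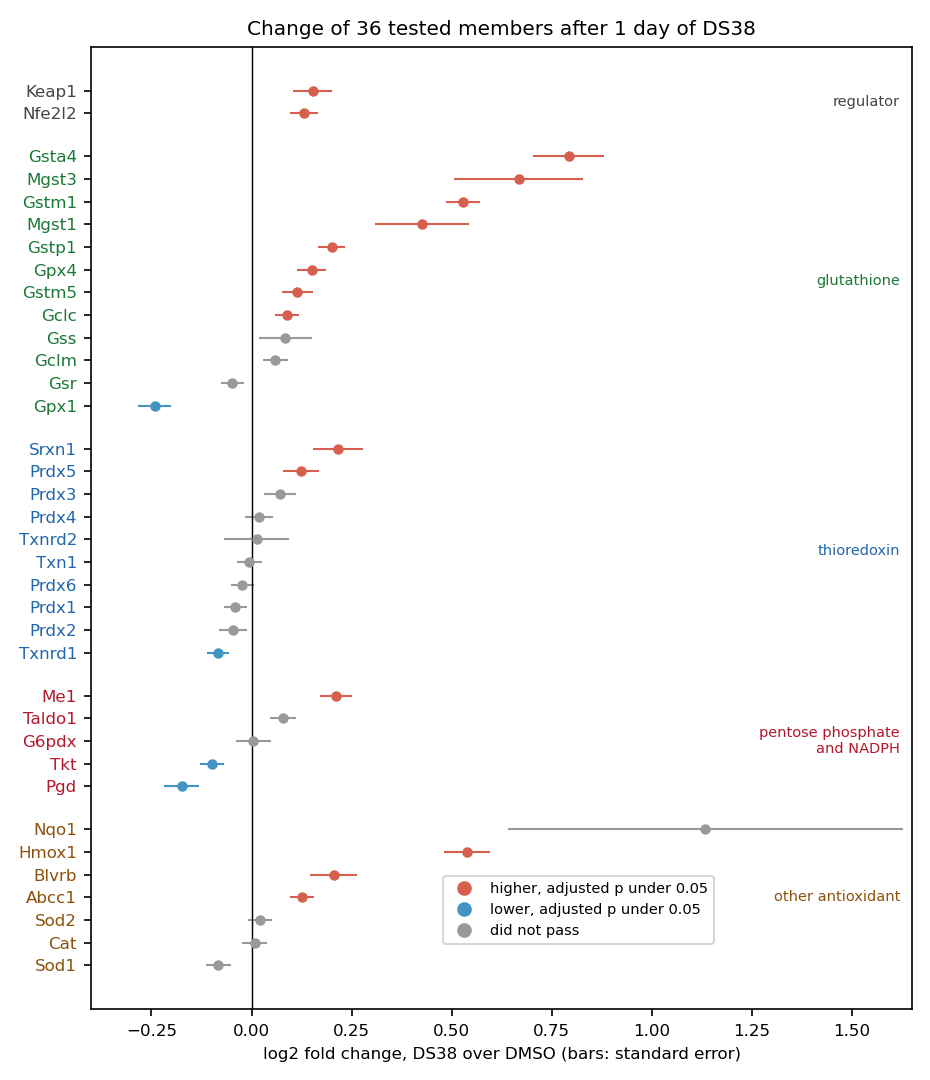
Log2 fold change of DS38 over DMSO (horizontal axis) for the 36 tested members, grouped by role; points are edgeR estimates, bars are standard errors, and color gives the call at an adjusted p under 0.05. Glutathione members reach from -0.24 for Gpx1 to 0.79 for Gsta4, 7 of 10 thioredoxin members did not pass, and Nqo1 has the widest bar.

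The calls lay mostly below the top of the abundance range. The tested members had a median of 61.6 CPM over all libraries, against 12.6 for all genes. Among genes over 100 CPM, 40.7% were called, and of the 10 members there 2 were, Txnrd1 and Tkt. Of 12 members at 50 to 100 CPM 8 were called (33.1% of all genes in that range), of 9 at 10 to 50 CPM 7 (31.7%) and of 4 at 1 to 10 CPM 3 (21.1%). These ranges were drawn after the values were seen.

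Levels can be compared between genes only per gene length, and this paragraph gives them as TPM, which scales the counts by the deposited gene lengths and then to the same sum in every library. In DMSO the 37 members summed to 4349 ± 135 TPM (SD, n = 3), and Prdx1, a peroxiredoxin of the cytosol, held 15.1% of that at 655 ± 17.4 TPM. Txn1, cytosolic thioredoxin, followed at 561 ± 21.2 TPM. Taldo1 (228 ± 9.52), Txnrd1 (210 ± 2.64), Gsr (209 ± 4.58) and Prdx2 (206 ± 11.6) came next. Every DMSO library of Taldo1 lay above those of the other three, which overlapped each other. At the low end were Txnrd2 (6.09 ± 0.346), Mgst3 (5.52 ± 1.06), Mgst1 (5.02 ± 0.0945), Nqo1 (0.269 ± 0.175) and Osgin1 (0.0819 ± 0.0709). The summed TPM of all members was 4260, 4282 and 4504 in DMSO and 4559, 4483 and 4473 in DS38, and the groups overlapped. The 6 glutathione transferases summed to 401, 417 and 426 TPM in DMSO and 515, 505 and 502 in DS38, without overlap. The 6 peroxiredoxins summed to 1343, 1370 and 1437 TPM in DMSO and 1421, 1374 and 1392 in DS38, and overlapped.

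**Figure D2:**
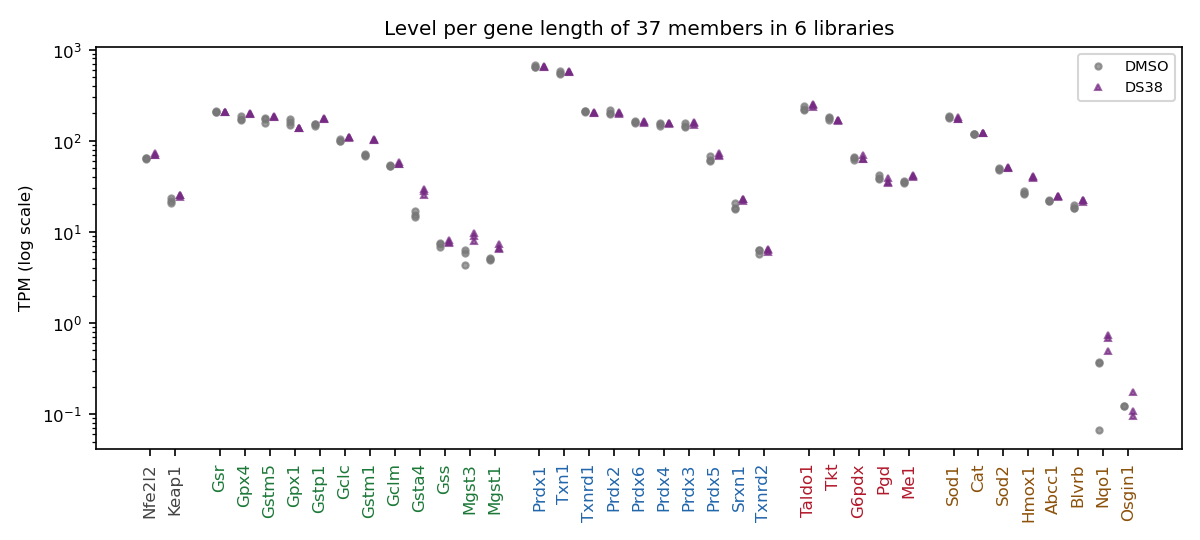
Level of each of the 37 members as TPM on a log scale in the 3 DMSO (circles) and 3 DS38 libraries (triangles), ordered by level within each role; a value of 0 (Osgin1 in DMSO replicate 3) is not drawn. Prdx1 and Txn1 lie highest, and Nqo1 and Osgin1 lie below 1 TPM in every library.

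The genes of NRF2 and of its inhibitor KEAP1 were both called higher with edgeR and TMM scaling. Nfe2l2, which encodes NRF2, was at 61.3, 59.7 and 61.8 CPM in DMSO replicates 1 to 3 and at 66.3, 64.8 and 69.0 in DS38. All DS38 libraries lay above all DMSO libraries, and the log2 fold change was 0.13 with an SE of 0.035 (edgeR adjusted p = 0.00743; values after ± beside a log2 fold change are SEs). Keap1 was at 24.7, 25.4 and 27.6 CPM in DMSO and 29.2, 29.5 and 27.6 in DS38, where DMSO replicate 3 and DS38 replicate 3 overlapped, with a log2 fold change of 0.15 ± 0.049 (edgeR adjusted p = 0.0255). Neither passed once the gene-length trend was removed (edgeR adjusted p = 0.0536 for Nfe2l2 and 0.0682 for Keap1). Keap1 shares 510 exon bases with Gm16754 on the opposite strand, which had 152 counts to 9976 for Keap1. Nfe2l2 also did not pass without DS38 replicate 3 (edgeR adjusted p = 0.0587), and Keap1 did not without DMSO replicate 1 or 2 (0.128 and 0.0986) or DS38 replicate 1 or 2 (0.0926 and 0.103).

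The antioxidant response element, through which NRF2 acts, has the core TGACNNNGC. It was searched on both strands in the RefSeq promoter windows of GRCm38.p6, which run from 250 bases before to 50 after a gene's start. Windows were found for 31 of 37 members (not for Gclc, Gsr, Gsta4, Prdx6, Hmox1 and Abcc1), and 11 of the 31 held the core in at least 1 window, or 35.5%, against 14.0% of all 27025 genes with a window. By call, 5 of 12 higher, 2 of 4 lower and 4 of 14 members that did not pass held it. In Me1 and Prdx1 the match was TGACTCAGC, which also contains the AP-1 motif TGACTCA. A match is a description of the letters in this window, and elements farther away were not searched. The stretches before the gene start are shown for the called members whose match lies there, to set a match beside each direction of change (core in capitals, which reads GCNNNGTCA where it lies on the other strand; each sequence runs 5′ to 3′ on the strand of the gene).
Nfe2l2 (higher; chr2:75704855-75704913, minus strand): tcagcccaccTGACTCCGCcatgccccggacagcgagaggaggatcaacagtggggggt
Gstm5 (higher; chr3:107895772-107895853, plus strand): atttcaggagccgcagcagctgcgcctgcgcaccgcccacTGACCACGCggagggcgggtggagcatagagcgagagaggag
Mgst1 (higher; chr6:138140431-138140519, plus strand): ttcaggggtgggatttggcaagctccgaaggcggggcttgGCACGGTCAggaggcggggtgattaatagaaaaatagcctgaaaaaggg
Txnrd1 (lower; chr10:82859074-82859162, plus strand): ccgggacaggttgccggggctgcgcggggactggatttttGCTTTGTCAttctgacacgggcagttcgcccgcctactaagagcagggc
Among the stretches shown, the core thus stood in 3 members that were higher and in Txnrd1, which was lower. The matches of Srxn1 and Me1 (higher) and of Pgd (lower) do not lie wholly before the gene start and are not shown. The Mgst1 and Txnrd1 matches lie in 1 of 2 and 1 of 3 windows of those genes.

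Of the 12 glutathione members 8 were higher and 1 was lower, that is 75.0% called, against 24.5% of all genes. The transferases, which conjugate electrophiles to glutathione, were called higher in 6 of 6 cases, against 12.9% of all genes. Of the 13 other transferases on the wider pathway list, 8 were tested, and these 8 are named after their values were seen. Among them 4 were higher (Gstm6, Gstt1, Gstt3 and Gstz1) and 4 did not pass (Gstm2, Gstm7, Gstp2 and Gsto1). Gstm6 and Gstp2 passed the filter on low counts only through the DS38 libraries. Gsta4, a transferase active on the lipid peroxidation product 4-hydroxynonenal, was at 4.65, 5.37 and 4.91 CPM in DMSO and 8.71, 9.28 and 7.95 in DS38. Every DS38 library lay well above every DMSO library (log2 fold change 0.79 ± 0.088; edgeR adjusted p = 1.03e-06). Gstm1, a mu-class transferase, was at 26.7, 25.2 and 25.5 CPM in DMSO and 37.7, 37.2 and 36.9 in DS38, an equally clear separation (log2 fold change 0.53 ± 0.042; edgeR adjusted p = 1.34e-08). Near-identical copies can share or lose reads, and since the handling of multi-mapping reads is not known, the values of Gstm1 and Gstp1 are uncertain to that extent. Gstm2, Gstm6 and Gstm7 were at 0.845, 0.266 and 0.710 CPM in DMSO and at 0.999, 0.720 and 0.839 in DS38, and Gstm4 had 0 counts.

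Gstp1, the pi-class transferase, was at 56.9, 58.7 and 59.2 CPM in DMSO and 68.3, 66.0 and 66.4 in DS38 (log2 fold change 0.20 ± 0.034), and its copy Gstp2 went from 0.150 to 0.251 CPM and did not pass. The membrane-bound transferases were scarce. Mgst1 went from 2.50, 2.58 and 2.53 CPM to 3.30, 3.24 and 3.65, and Mgst3 from 1.74, 1.19 and 1.63 to 2.62, 2.46 and 2.15, without overlap in either (log2 fold changes 0.42 ± 0.12 and 0.67 ± 0.16). Gstm5 was at 50.7, 54.9 and 56.5 CPM in DMSO and 59.9, 57.7 and 57.7 in DS38, a change of 0.11 ± 0.039 that just passed (edgeR adjusted p = 0.0356). It shares 178 exon bases with 4933431E20Rik on the opposite strand, which was also higher (log2 fold change 0.15 ± 0.045); without a stated strand setting their reads cannot be told apart. Mgst1 did not pass without DS38 replicate 3 (edgeR adjusted p = 0.0570). Gstm5 did not pass with DESeq2 (adjusted p = 0.0684), with a replicate block (edgeR adjusted p = 0.0563), or without any 1 library but DMSO replicate 3 (edgeR adjusted p = 0.0598 to 0.224).

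Of the 4 genes that make and recycle glutathione, 1 was called, a share near the 24.5% of all genes. Gclc, the catalytic subunit of the rate-limiting ligase, was at 94.0, 94.2 and 97.9 CPM in DMSO and 100.2, 102.8 and 101.2 in DS38 (log2 fold change 0.09 ± 0.031; edgeR adjusted p = 0.0373). Gclm, the modifier subunit of the same ligase, was at 83.3, 85.5 and 82.9 CPM in DMSO and 87.6, 85.1 and 89.5 in DS38, and did not pass (0.06 ± 0.032; edgeR adjusted p = 0.188). Gss, glutathione synthetase, at 10.8 ± 0.465 and 11.4 ± 0.449 CPM (SD, n = 3), and Gsr, which reduces oxidized glutathione, at 144 ± 3.02 and 139.6 ± 1.501 CPM, did not pass either. Gss shares 395 exon bases with Acss2 on the opposite strand, which had 8292 counts to 4042 for Gss and was called higher (log2 fold change 0.23 ± 0.049). The Gclc call was lost in 9 of 16 alternatives, with edgeR adjusted p = 0.0707 to 0.141 without any 1 library but DMSO replicate 3, 0.244 with the gene-length trend removed, 0.0592 with RLE scaling and 0.0696 with a replicate block, and adjusted p = 0.0705 with DESeq2. Gclm passed with library size alone (edgeR adjusted p = 0.0321) and Gsr, as lower, with the length trend removed (0.00868).

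The 2 glutathione peroxidases, both selenoproteins, went opposite ways. Gpx1, which reduces hydrogen peroxide, was at 57.7, 54.3 and 62.2 CPM in DMSO and 49.8, 48.5 and 48.8 in DS38, so that all DS38 libraries lay below all DMSO libraries (log2 fold change -0.24 ± 0.041; edgeR adjusted p = 1.75e-04). Gpx4, which reduces lipid hydroperoxides in membranes and thereby restrains ferroptosis, was at 74.4, 73.8 and 80.4 CPM in DMSO and 87.2, 83.5 and 82.8 in DS38 (0.15 ± 0.036; edgeR adjusted p = 0.00369). The 2 genes kept their calls in all 16 alternatives.

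**Figure D3:**
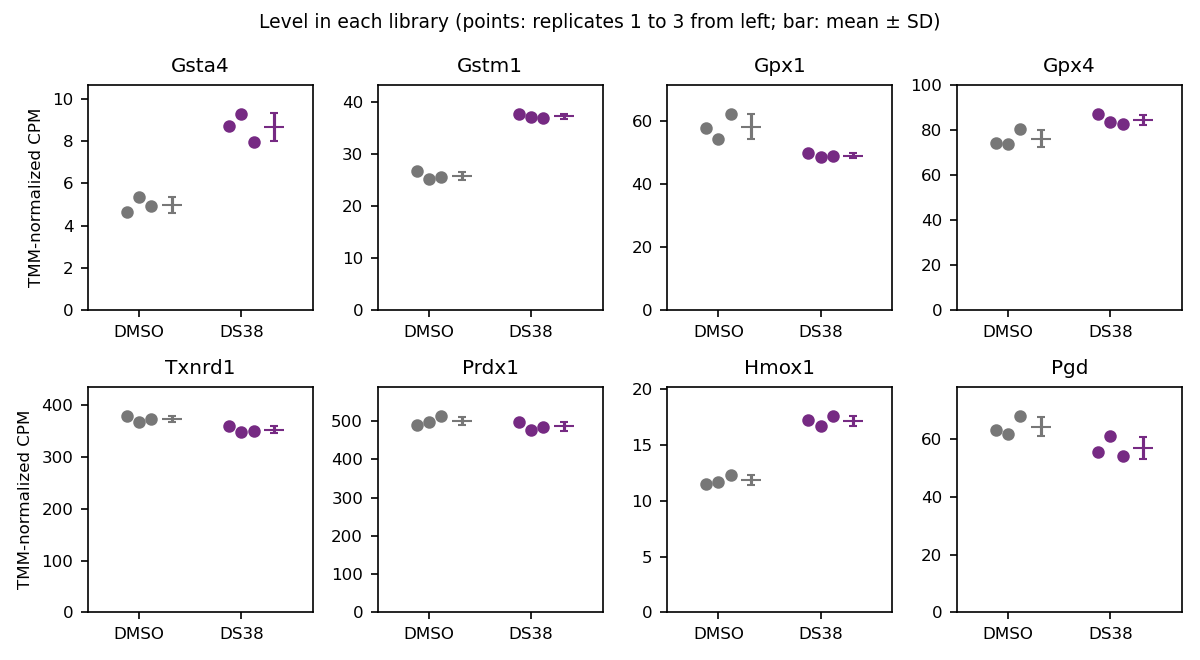
TMM-normalized CPM (vertical axis, from 0) of 8 members in each DMSO and DS38 library; points are replicates 1 to 3 and bars are the mean ± SD. Gsta4, Gstm1, Gpx4 and Hmox1 are higher and Gpx1, Txnrd1 and Pgd lower in DS38 without overlap, while the Prdx1 libraries overlap; the 8 genes were picked for display after their values were seen.

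Of the 10 thioredoxin members 2 were higher and 1 was lower. Txn1, the thioredoxin that reduces protein disulfides in the cytosol, was at 146.5, 143.4 and 153.7 CPM in DMSO and 150.4, 146.1 and 145.2 in DS38 (log2 fold change -0.005 ± 0.031; edgeR adjusted p = 0.926). Txnrd1, the cytosolic thioredoxin reductase, was at 379, 368 and 375 CPM in DMSO and 361, 349 and 350.1 in DS38, a small fall without overlap (-0.08 ± 0.028; edgeR adjusted p = 0.0321). Its mitochondrial counterpart Txnrd2 was at 6.72 ± 0.359 and 6.76 ± 0.274 CPM (SD, n = 3) and did not pass. The Txnrd1 call was lost in 7 of 16 alternatives: with library size alone (edgeR adjusted p = 0.177), no filter (0.0691), a replicate block (0.0609), thinning to equal depth (0.0576), and leaving out DS38 replicate 2 (0.156), DS38 replicate 3 (0.128) or DMSO replicate 1 (0.0722).

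Peroxiredoxins remove hydrogen peroxide with electrons from thioredoxin, apart from Prdx6, which relies on glutathione. Prdx1, the most abundant member, was at 490, 498 and 513 CPM in DMSO and 498, 477 and 484 in DS38, overlapping and not called (-0.04 ± 0.029; edgeR adjusted p = 0.332). Prdx2 (cytosol), Prdx3 (mitochondria), Prdx4 (endoplasmic reticulum) and Prdx6 had log2 fold changes between -0.05 and 0.07 and did not pass. Prdx5 was at 33.5, 32.5 and 36.2 CPM in DMSO and 36.206, 38.1 and 36.9 in DS38, where DMSO replicate 3 came within 0.01 CPM of the lowest DS38 library (0.12 ± 0.044; edgeR adjusted p = 0.0444). Srxn1, sulfiredoxin, which repairs overoxidized peroxiredoxins and is a well-known NRF2 target, was at 12.7, 14.8 and 12.9 CPM in DMSO and 15.9, 15.8 and 15.2 in DS38 (0.22 ± 0.063; edgeR adjusted p = 0.0149). Of the 6 peroxiredoxins 5 were not called. Since only 24.5% of all genes were called, that count does not set the peroxiredoxins apart from other genes or from Srxn1.

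The Prdx5 call was lost in 9 of 16 alternatives, among them every 1 library left out but DMSO replicate 3 (edgeR adjusted p = 0.0601 to 0.218). The Srxn1 call was lost without DMSO replicate 1 (edgeR adjusted p = 0.0878) or DS38 replicate 1 (0.0585). Prdx3 passed without DMSO replicate 3 (edgeR adjusted p = 0.0358), and Prdx1 and Prdx2 passed as lower with the gene-length trend removed (0.0112 and 0.0271). Prdx5 shares 409 exon bases with Trmt112 on the opposite strand, which did not pass (edgeR adjusted p = 0.355).

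Of the 5 pentose phosphate and NADPH members, 1 was higher and 2 were lower, that is 60.0% called, against 24.5% of all genes. Of the 3 that make NADPH (G6pdx, Pgd and Me1), 1 was higher and 1 lower, and of the 2 in the nonoxidative branch (Tkt and Taldo1), 1 was lower. G6pdx, the glucose-6-phosphate dehydrogenase that opens the pentose phosphate pathway, was at 49.7, 46.9 and 51.4 CPM in DMSO and 52.9, 47.5 and 47.8 in DS38, and did not pass (log2 fold change 0.004 ± 0.044). G6pdx shares 418 exon bases with Ikbkg on the opposite strand, which had 17446 counts to 17878 for G6pdx and was called higher (log2 fold change 0.10 ± 0.035). Pgd, the next NADPH-making dehydrogenase of the route, was at 63.2, 61.8 and 68.0 CPM in DMSO and 55.6, 61.3 and 54.1 in DS38, lower without overlap (-0.17 ± 0.044; edgeR adjusted p = 0.00534). Tkt, transketolase of the nonoxidative branch, was at 326, 312 and 336 CPM in DMSO and 309.5, 302 and 298 in DS38, also lower (-0.10 ± 0.030; edgeR adjusted p = 0.0205). Taldo1, transaldolase of that same branch, was at 124 ± 4.76 and 131 ± 4.02 CPM (SD, n = 3) and did not pass.

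Outside the pathway, Me1, cytosolic malic enzyme, was at 33.9, 33.0 and 34.4 CPM in DMSO and 38.5, 39.5 and 39.2 in DS38 without overlap (log2 fold change 0.21 ± 0.039; edgeR adjusted p = 4.03e-04). Its call held in all 16 alternatives. Pgd did not pass without DS38 replicate 3 (edgeR adjusted p = 0.0520). Tkt did not pass without DS38 replicate 2 (edgeR adjusted p = 0.0832) or 3 (0.115), nor with library size alone (0.115), whereas Taldo1 passed as higher with library size alone (0.0159) and when DMSO replicate 3 was left out (0.0111).

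Of the 8 other antioxidant members 7 were tested, and 3 were higher and 0 lower, that is 42.9% called, against 24.5% of all genes. Hmox1, heme oxygenase, which breaks heme into biliverdin, iron and carbon monoxide, was at 11.5, 11.6 and 12.3 CPM in DMSO and 17.2, 16.7 and 17.6 in DS38, and the groups stood far apart (log2 fold change 0.54 ± 0.058; edgeR adjusted p = 6.47e-07). Blvrb, a flavin and biliverdin reductase, was at 12.7, 12.9 and 13.6 CPM in DMSO and 15.4, 15.2 and 14.5 in DS38 (0.21 ± 0.059; edgeR adjusted p = 0.0128). Blvra, the other biliverdin reductase gene, stood on the wider pathway list and did not pass (0.12 ± 0.066, edgeR adjusted p = 0.210). Abcc1, a pump that exports glutathione conjugates, was at 83.7, 82.2 and 83.9 CPM in DMSO and 89.7, 91.6 and 91.5 in DS38 (0.13 ± 0.030; edgeR adjusted p = 0.00385). Hmox1 and Abcc1 kept their calls in all 16 alternatives, and Blvrb did not pass without DMSO replicate 1 (edgeR adjusted p = 0.0547) or DS38 replicate 1 (0.0596).

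The enzymes that remove superoxide and hydrogen peroxide directly did not pass. Cat, catalase, averaged 77.9 ± 0.358 CPM with vehicle and 78.4 ± 0.460 with DS38 (SD, n = 3; edgeR adjusted p = 0.884). Sod2, the mitochondrial superoxide dismutase, was at 123 ± 3.70 and 125 ± 1.44 CPM. Sod1, the cytosolic one, was at 176, 180.4 and 188 CPM in DMSO and 170.0, 177 and 167 in DS38 (log2 fold change -0.08 ± 0.032; edgeR adjusted p = 0.06004). The groups overlapped. Sod1 passed as lower in 7 of 16 alternatives, among them RLE scaling (edgeR adjusted p = 0.0409), the length trend removed (0.00124), and without DMSO replicate 1 (0.0246) or DS38 replicate 2 (0.0484), and also with DESeq2 (adjusted p = 0.0393).

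A pair of widely used NRF2 reporter genes was hardly expressed. Nqo1, a quinone reductase, had 7, 7 and 1 counts in DMSO and 15, 16 and 24 in DS38, that is 0.105 ± 0.0685 and 0.244 ± 0.0492 CPM (SD, n = 3). The groups did not overlap, but it passed the filter only through the DS38 libraries and was not called (log2 fold change 1.13 ± 0.49; edgeR adjusted p = 0.100). Osgin1, an oxidative-stress growth inhibitor, had 4, 4 and 0 counts in DMSO and 5, 7 and 6 in DS38 and was not tested.

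Among the rest of the pathway, 82 other genes were listed, of which 73 were tested, 23 were higher and 6 lower (39.7%, against 24.5% of all genes). The 9 that were not tested had at most 19 counts each. By role, 4 were higher and 1 lower of 10 regulators, 9 and 0 of 25 glutathione genes, 2 and 1 of 13 thioredoxin genes, 3 and 3 of 10 pentose phosphate and NADPH genes, and 5 and 1 of 15 other antioxidant genes. Cth, which makes cysteine for glutathione, was at 17.5, 20.3 and 18.7 CPM in DMSO and 30.1, 29.4 and 31.0 in DS38 (edgeR adjusted p = 7.39e-09). The ferritin light chain gene Ftl1 was at 162, 161 and 174 CPM and at 224, 213 and 213.0 in DS38. Sesn2, a sestrin, was at 36.5, 37.1 and 35.1 and then 47.7, 48.5 and 48.4 CPM, and Sqstm1, whose product p62 binds KEAP1, at 124, 117 and 123 and then 153, 150.5 and 146 CPM. In each of these 4 every DS38 library lay above every DMSO library, as in 20.7% of all genes. They were taken for the smallest adjusted p among the higher genes of the list, which favors such a separation.

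The lower genes of that list with the smallest adjusted p were Idh1, Me2, Rpia and Cul3. Idh1, the cytosolic NADPH-making isocitrate dehydrogenase, was at 107, 102 and 106 CPM in DMSO and 90.4, 89.5 and 88.5 in DS38 (log2 fold change -0.23 ± 0.030; edgeR adjusted p = 1.06e-05). Me2, the mitochondrial malic enzyme, changed by -0.12 ± 0.031, Rpia, ribose-5-phosphate isomerase of the pentose phosphate pathway, by -0.15 ± 0.039, and Cul3, the cullin of the ligase that carries KEAP1, by -0.09 ± 0.029 on the log2 scale. None of the 4, likewise taken for their small adjusted p, overlapped between groups, and 17.9% of all genes were lower without overlap. Of the list, 3 genes were lower without any 1 DS38 library, or with library size alone, and 20 to 25 were higher when a library was left out.

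**Figure D4:**
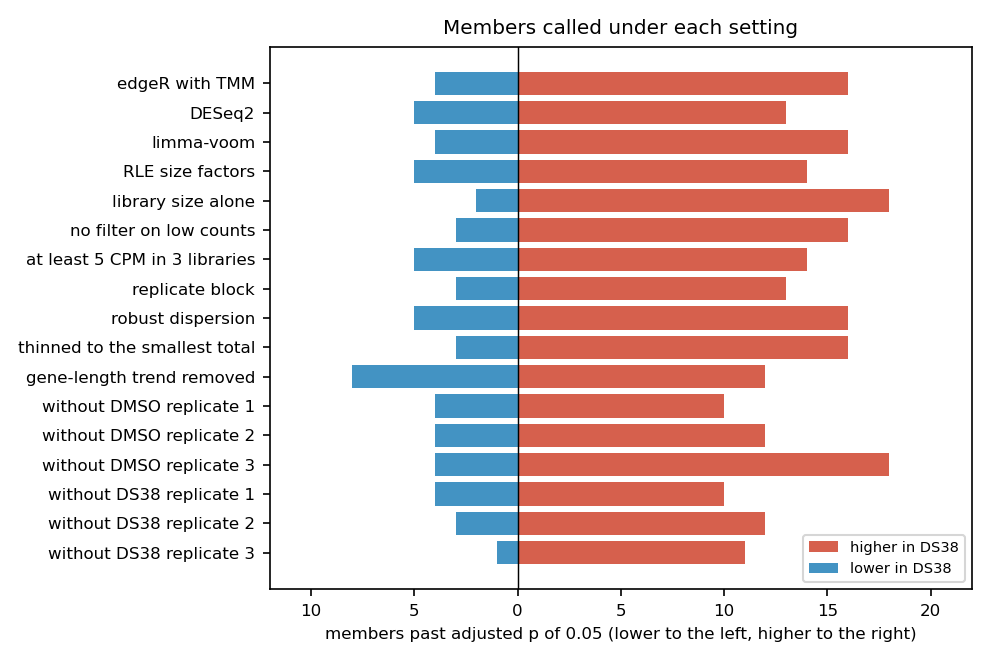
Number of members past an adjusted p of 0.05 (bars, higher in DS38 to the right and lower to the left) with edgeR and TMM scaling and under 16 alternatives. Higher members range from 10 to 18 and lower ones from 1 to 8; without DS38 replicate 3 a single member, Gpx1, is lower.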

How the data were processed

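The authors deposited a table of whole-number read counts per Ensembl gene, with gene lengths, that covers the 3 DMSO and 3 DS38 libraries. The submitters' processing notes name STAR 2.7.9a, featureCounts, Subread 2.0.3, edgeR, R 4.1.0 and the builds GRCm39 and GRCh38.p13, with no role or order. How strand and multi-mapping reads were handled is not given here. Replicates of a group differed by more than sampling noise (chi-square over its degrees of freedom 2.94 to 3.63 between DS38 libraries and 8.31 to 9.37 between DMSO libraries). Between groups it was 10.5 to 13.0 for DMSO replicate 3, the shallowest library, and 24.9 to 29.7 for DMSO replicates 1 and 2.

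Here genes were kept by filterByExpr (minimum count 10, minimum total 15), scaled by TMM and tested with edgeR 4.0.16 (R 4.3.3), two-sided, by quasi-likelihood on group alone. Benjamini-Hochberg adjustment ran over all 17679 genes, with a threshold of 0.05. The SE is the log2 fold change over the square root of F. Alternatives were DESeq2 1.42.0, limma-voom (limma 3.58.1), RLE scaling, no filter on low counts, scaling by library size alone, at least 5 CPM in 3 libraries, a block for replicate number, robust dispersion, thinning to 38840296 counts, removal of each library's trend with gene length, and leaving out each library. The fits were tested on simulated data. Gene symbols and exon overlaps came from GENCODE M21 (GRCm38). All 37 members are named, and of the wider pathway list the 4 higher and 4 lower genes with the smallest adjusted p. Other genes of that list (close copies of members, further transferases, Blvra, Cbs, Chac1, Chac2, Gpx3 and Slc7a11) were named after their values were seen. The members and lists were chosen with earlier results of these data known.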

Additional observations from a re-analysis of the deposited data

How the results depend on the processing

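Of the 20 called members, 9 (8 higher and Gpx1) kept call and direction in all of the 16 alternatives in which they were tested; Mgst3 was not tested at 5 CPM in 3 libraries. Of the 16 that did not pass, 7 passed in at least 1 alternative. The number of members called lower was 8 with the gene-length trend removed and 2 with library size alone, and leaving out single libraries gave 10 to 18 higher and 1 to 4 lower. Over all genes the share of calls that were higher was 52.4%, and 68.1% with library size alone; the median log2 fold change of all genes was then 0.0384. Deviations from the group mean correlated at 0.0349, -0.0108 and -0.0266 between same-numbered libraries of the groups. Between differently numbered ones they correlated at -0.0436 to 0.0563. Such values cannot show whether same-numbered libraries were handled together, which the labels do not say. With the replicate number as a block 13 members were higher and 3 lower.

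Changes of sign befell only members that did not pass, and the cause was not tested. With the gene-length trend removed the log2 fold change was 0.0235 for Txn1, -0.0251 for Txnrd2, -0.0177 for Prdx4, -0.0403 for G6pdx and -0.0370 for Cat. Library size alone gave 0.0293 for Txn1 and 0.0112 for Prdx6, and no filter 0.00243 for Txn1. Thinning gave -0.0163 for Txnrd2 and -0.00165 for G6pdx. G6pdx was at -0.00417 with DESeq2, -0.00324 with RLE and -3.56e-04 at 5 CPM in 3 libraries. With 1 library left out, values ranged from -0.0271 to 0.0192 for Txn1, -0.0325 to 0.0426 for Txnrd2, -0.0118 to 0.0468 for Prdx4, -0.0475 to 0.0314 for G6pdx and -9.91e-04 to 0.0385 for Sod2. Of the wider pathway list, 3 genes were lower with library size alone, and 3 to 6 with 1 library left out. Depth limited Nqo1 and Osgin1 most, at 70 and 26 counts in total.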

Other observations

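Of the 9 tested glutathione genes of the wider list whose mean in DMSO was under 1 CPM, 4 were higher in DS38. The other 5 did not pass (Cbs, Gpx3, Gstm2, Gstm7 and Gstp2). Of all genes 12.9% were called higher, and of those with a mean under 1 CPM over all libraries 6.16% were called in either direction. The group was drawn after the values were seen, and choosing a low level in DMSO favors genes that are higher in DS38. The 6.16% rests on the mean of all libraries and on both directions, so it is not a like comparison. No conclusion is drawn from the count. Slc7a11, the cystine carrier that feeds glutathione synthesis, was at 0.819, 0.603 and 0.646 CPM in DMSO and 1.18, 1.52 and 1.27 in DS38 (log2 fold change 0.92 ± 0.21; edgeR adjusted p = 0.00288). The theta-class transferase Gstt1 went from 0.930 ± 0.303 to 1.77 ± 0.335 CPM (SD, n = 3), Gstt3 from 0.538 ± 0.116 to 1.01 ± 0.295, and the mu-class Gstm6 from 0.266 ± 0.0949 to 0.720 ± 0.190. In each of these 4 genes all DS38 libraries lay above all DMSO libraries, as in 20.7% of all genes. The 4 are named because they were called, so the lack of overlap adds nothing to the calls. Gstm6 passed the filter on low counts only through the DS38 libraries.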
